A study of Mus musculus with 6 samples.

Results

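The genes described here code for the machinery of macroautophagy. They were chosen as a list of 38 mouse gene symbols, matched to the Ensembl identifiers of the count table, and 37 were found among its 24379 genes. The other listed gene, a receptor, was not analysed here. Macroautophagy encloses cytoplasm in a double membrane, the autophagosome, and delivers it to the lysosome. A kinase complex around ULK1 starts the process and a lipid kinase complex around Beclin 1 marks the membrane. The membrane then grows on lipid brought in by ATG2 and ATG9, and small ubiquitin-like proteins of the ATG8 family are attached to it by a chain of conjugation enzymes. Receptors such as p62 bind both cargo and ATG8 proteins. In macrophages the pathway is known for the removal of damaged mitochondria, of protein aggregates and of microbes, and for its restraint of inflammasome activity.

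The samples were 6 RNA sequencing libraries of RAW264.7, a mouse tumour line that behaves much like macrophages. By their labels, 3 came from cells given HFCS (high-fructose corn syrup, which is rich in both free sugars of sucrose) and 3 from cells named WT, here called control. All 6 were taken at 18 h, and the HFCS dose is uncertain, since titles give 140 mM and source names 170 mM. The sources used here do not say what the control cells were given or whether replicates were grown separately, so p-values reflect only how far these libraries scatter, which may be technical.

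Total counts were 13108485 to 15340255 per library, and every member had at least 51 counts in every library. The 9 of 10 macrophage markers that were measured lay at 5 CPM (counts per 1000000 of the scaled library size) or more in all libraries, with a summed level of 2520 to 2630 CPM in the HFCS-labelled and 1960 to 2030 CPM in the control-labelled libraries. None of the 16 measured markers of fibroblasts, epithelium, T cells, B cells and neutrophils reached 5 CPM in every library, and their largest summed level was 8.62 CPM, for T cells in an HFCS-labelled library. The part of these marker levels in the results was not tested. All directions follow the labels, and 1 gene made this worth stating: Akr1b3, an aldose reductase gene known to be induced by hypertonic stress, measured 208 ± 12 CPM with the HFCS label and 7435 ± 381 CPM with the control label (mean ± SD, n = 3 each). Whether the labels were exchanged was not tested, and if they were, each higher or lower call would reverse. Control replicate 1 lay at 26 on the second principal component, away from control replicates 2 and 3 at -12.8 and -11.4. On the same component HFCS replicate 3 lay at -14.8, and HFCS replicates 1 and 2 at 6.7 and 6.2. In bulk RNA, fewer cells with a transcript and less of it per cell cannot be told apart.

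The comparison asked which of these genes differed between HFCS-labelled and control-labelled macrophages. The machinery did not move as a block. Sqstm1, which codes for the receptor p62, was 2.19-fold higher with the HFCS label, and the log2 fold changes of the other 36 measured members lay between -0.57 and 0.56. All 37 members passed the filter on low counts. An adjusted p under 0.05 (edgeR quasi-likelihood, Benjamini-Hochberg over 14360 genes) was reached by 15 of them (40.5%), where 44.9% of all tested genes reached it. Of these, 7 were higher (18.9%, against 22.4% of all tested genes) and 8 lower (21.6%, against 22.5%) in the HFCS-labelled libraries. A share of called genes near that of all genes is no result about the members.

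The members' median log2 fold change was -0.04, and that of all tested genes 0.00. The median size of the change, without its sign, was 0.21 for the members and 0.33 for all tested genes. Sqstm1 was the 1 member past the threshold with a change of at least 2-fold, which 10.6% of all tested genes reached (4.24% higher, 6.40% lower). The libraries of the groups did not overlap for 18 members (48.6%), as for 54.5% of all tested genes. Without control replicate 1, 8 members were higher and 10 lower (48.6%), as the share over all tested genes went to 51.5%.

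**Figure D1:**
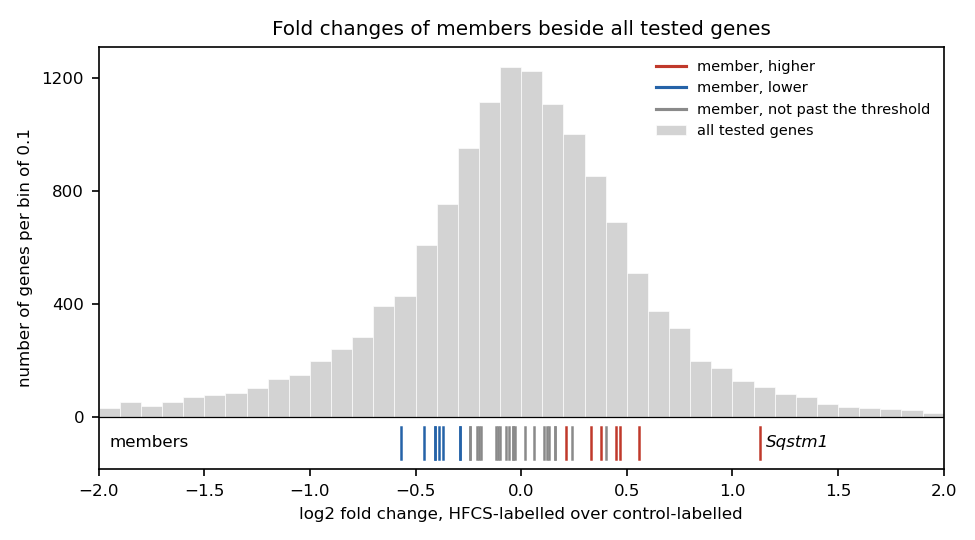
The bars count all 14360 tested genes by log2 fold change, HFCS-labelled over control-labelled, in bins of 0.1, with 348 genes beyond the plotted range of 2 either way left out. The ticks under the bars are the 37 members, coloured by call: 36 lie within 0.6 of 0, a range that holds 73.1% of all tested genes, and Sqstm1 stands alone at 1.13.

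Initiation begins with the ULK complex, in which the kinase ULK1 or ULK2 is held by ATG13, ATG101 and the scaffold FIP200, the product of Rb1cc1. Its members moved apart, with 2 higher and 1 lower of 5. Atg101 (ENSMUSG00000037204, mm10 chromosome 15, 101284272 to 101290945, plus strand), whose product stabilises ATG13, had 25.0, 25.1 and 23.0 CPM in HFCS-labelled replicates 1 to 3 and 16.7, 16.3 and 16.6 CPM in control-labelled replicates 1 to 3. The groups lay well apart, by 0.56 ± 0.10 (SE) on the log2 scale (edgeR adjusted p = 0.00122). Atg13 (ENSMUSG00000027244, chromosome 2, 91674618 to 91710576, minus strand), the regulatory subunit that nutrient signalling phosphorylates, had 101, 106 and 109 against 83.2, 82.2 and 85.3 CPM, which is 0.33 ± 0.07 on the log2 scale (edgeR adjusted p = 0.00222).

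The kinase gene itself went the other way. Ulk1 (ENSMUSG00000029512, chromosome 5, 110784488 to 110810097, minus strand) had 62.4, 67.6 and 59.9 CPM in the HFCS-labelled and 83.3, 85.9 and 79.2 CPM in the control-labelled libraries. Every HFCS-labelled library was below every control-labelled one, and Ulk1 fell by 0.39 ± 0.08 on the log2 scale (edgeR adjusted p = 0.00186). Its paralogue Ulk2 had a log2 fold change of -0.24 (95% interval -0.48 to 0.01, edgeR adjusted p = 0.105), and the log2 ratio of Ulk1 to Ulk2 within a library was 0.40 ± 0.20 in HFCS-labelled and 0.55 ± 0.14 in control-labelled libraries (SD, n = 3 each), with overlap. Rb1cc1 had 73.2, 80.4 and 82.7 against 68.5, 103 and 101 CPM, and control replicate 1 was the lowest of all 6 libraries. With all libraries Rb1cc1 did not pass (log2 fold change -0.20, edgeR adjusted p = 0.248). Without control replicate 1 both passed, Rb1cc1 at -0.36 (edgeR adjusted p = 5.4e-04) and Ulk2 at -0.30 (0.0219).

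The second initiation complex makes the lipid phosphatidylinositol 3-phosphate (PI3P). Its catalytic subunit VPS34 is the product of Pik3c3, VPS15 that of Pik3r4, and Beclin 1 that of Becn1, while ATG14 and UVRAG direct it to autophagosomes and to endosomes, and AMBRA1 is a regulator that binds Beclin 1. Of the 6 genes, none rose and 2 fell. Pik3c3 (ENSMUSG00000033628) had 30.5, 32.0 and 34.9 CPM in the HFCS-labelled and 43.8, 42.6 and 43.1 CPM in the control-labelled libraries, without overlap, and fell by 0.41 ± 0.09 on the log2 scale (edgeR adjusted p = 0.00304). Atg14 (ENSMUSG00000037526, chromosome 14, 47540893 to 47570649, minus strand) had 21.6, 24.2 and 21.8 against 27.1, 29.7 and 30.8 CPM, again without overlap, and fell by 0.37 ± 0.10 (edgeR adjusted p = 0.0124). Atg14 did not pass without HFCS replicate 1 (0.0646), HFCS replicate 3 (0.0516) or control replicate 3 (0.0514).

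Nrbf2, a further subunit of this complex, was placed in another list, rose, and is given below. The other listed genes of the complex did not pass the test. The log2 fold changes were 0.16 for Uvrag (95% interval -0.01 to 0.32), 0.13 for Pik3r4 (-0.04 to 0.31), 0.06 for Becn1 (-0.13 to 0.24) and -0.04 for Ambra1 (-0.28 to 0.20). Pik3r4 was the 1 gene of these whose libraries did not overlap between the groups. Becn1 shares 43.9% of its exon bases with Cntd1 on the opposite strand. Cntd1 had 119 to 134 counts in the HFCS-labelled and 199 to 256 in the control-labelled libraries, and without a stated strand setting the reads of overlapping genes cannot be told apart, so the value for Becn1 is uncertain.

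Next come the genes that supply and shape the growing membrane. ATG2A and ATG2B are bridges that carry lipid into it, ATG9A is a scramblase on the vesicles that seed it, VMP1 is a scramblase of the endoplasmic reticulum, and WIPI1 and WIPI2 are PI3P-binding propellers. Vmp1 was higher and Atg2b and Wipi1 were lower, and the other 3 of 6 did not pass. Wipi1 (ENSMUSG00000041895, chromosome 11, 109573331 to 109611967, minus strand) had 12.7, 14.8 and 11.6 CPM in the HFCS-labelled and 19.4, 20.8 and 18.1 CPM in the control-labelled libraries. This was the member with the most negative log2 fold change, -0.57 ± 0.13 (edgeR adjusted p = 0.00403). Atg2b (ENSMUSG00000041341, chromosome 12, 105616136 to 105685211, minus strand) had 167, 164 and 166 against 202, 237 and 220 CPM, and fell by 0.41 ± 0.07 (edgeR adjusted p = 9.0e-04).

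For both genes the groups did not overlap, while their paralogues among the members, Wipi2 and Atg2a, did not pass. Wdr45b, a WIPI gene outside the members, rose and is given below. Wipi2 had a log2 fold change of -0.07 (95% interval -0.21 to 0.07), Atg2a one of -0.10 (-0.28 to 0.08) and Atg9a one of -0.03 (-0.20 to 0.15). The log2 ratio of Wipi1 to Wipi2 was -3.15 ± 0.15 in HFCS-labelled and -2.64 ± 0.14 in control-labelled libraries. Vmp1 (ENSMUSG00000018171, chromosome 11, 86583865 to 86683836, minus strand) had 158, 154 and 157 against 123, 147 and 136 CPM, which is 0.21 ± 0.07 on the log2 scale (edgeR adjusted p = 0.0407). Of the 15 calls this one had the largest adjusted p: Vmp1 did not pass with upper-quartile factors (edgeR adjusted p = 0.0731), in DESeq2 (adjusted p = 0.0572), or without HFCS replicate 1, 2 or 3 or control replicate 3 (edgeR adjusted p = 0.0739 to 0.0977).

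**Figure D2:**
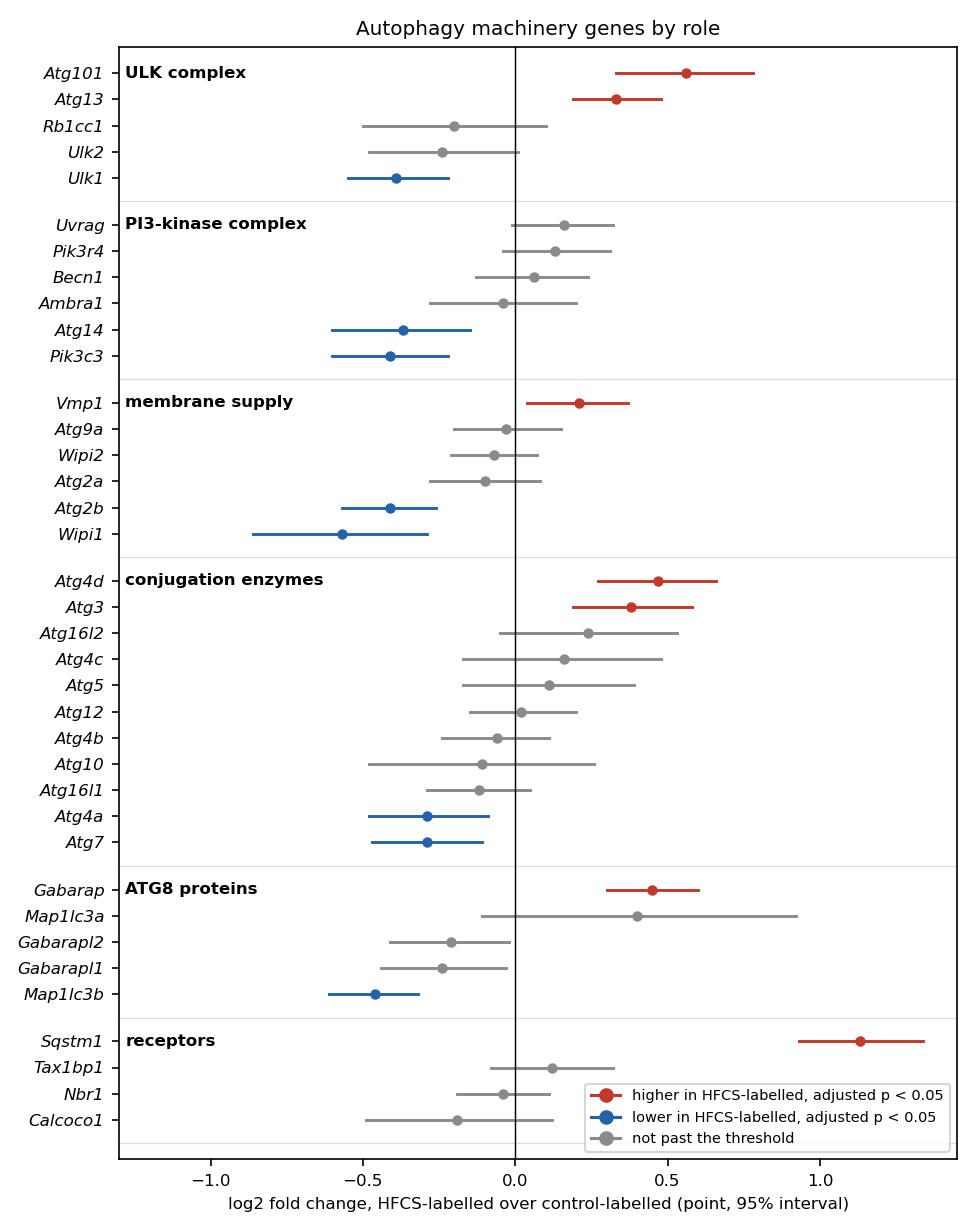
Each point is a member's log2 fold change, HFCS-labelled over control-labelled, with its 95% interval from edgeR, grouped by role and coloured by call. Higher and lower members stand side by side in 4 of the 6 roles. The 6 listed genes of the PI3-kinase complex have only lower calls, and Sqstm1 at 1.13 is the only call among the 4 receptors.

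Conjugation joins ATG12 to ATG5 and ATG8 proteins to the membrane lipid phosphatidylethanolamine. ATG7 is the activating enzyme of both reactions, ATG10 and ATG3 are the carrier enzymes for ATG12 and for ATG8 proteins, ATG16L1 places the ATG12-ATG5 conjugate on the membrane, and the ATG4 proteases trim ATG8 proteins before use and release them afterwards. Of 11 genes for these steps 2 rose, 2 fell and 7 did not pass. Atg4d (ENSMUSG00000002820, chromosome 9, 21265293 to 21277772, plus strand) had 53.8, 53.6 and 51.6 CPM in the HFCS-labelled and 42.2, 35.0 and 37.6 CPM in the control-labelled libraries, which is 0.47 ± 0.09 on the log2 scale (edgeR adjusted p = 0.00161). Its exons share 19.3% of their bases with Kri1 on the opposite strand, which had 722 to 879 counts in the HFCS-labelled and 406 to 672 in the control-labelled libraries, so the part of Kri1 reads in this value was not tested.

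Atg3 (ENSMUSG00000022663, chromosome 16, 45158785 to 45188538, plus strand) had 48.2, 48.2 and 56.0 against 38.5, 38.1 and 40.4 CPM, which is 0.38 ± 0.09 on the log2 scale (edgeR adjusted p = 0.00529). The activating enzyme gene Atg7 (ENSMUSG00000030314, chromosome 6, 114643097 to 114860614, plus strand) moved against it, with 87.3, 71.4 and 78.6 against 98.0, 98.6 and 93.7 CPM. It fell by 0.29 ± 0.08 on the log2 scale (edgeR adjusted p = 0.0142), but did not pass without HFCS replicate 2 (0.0902) or HFCS replicate 3 (0.0541), or with library size alone as the scale (0.0563).

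Atg4a (ENSMUSG00000079418, chromosome X, 140956907 to 141164270, plus strand) had 33.0, 33.1 and 29.6 against 37.7, 40.1 and 38.8 CPM and fell by 0.29 ± 0.09 (edgeR adjusted p = 0.0218). The libraries of the groups did not overlap, yet in 7 of 14 other settings the gene did not pass, with adjusted p-values up to 0.109. Over 2115 of 2202 bases its transcript is 99.3% identical to that of Atg4a-ps, which was counted 15 times over all 6 libraries, so reads could have been split or dropped between them and the value is uncertain. The genes of the ATG12-ATG5-ATG16L1 conjugate did not pass: Atg12 was at 0.02 (95% interval -0.15 to 0.20), Atg5 at 0.11 (-0.17 to 0.39) and Atg16l1 at -0.12 (-0.29 to 0.05) on the log2 scale. Nor did Atg4b (-0.06), Atg4c (0.16), Atg10 (-0.11) and Atg16l2 (0.24).

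Control replicate 1 stood apart for several of these. Atg16l2 had 49.7, 48.5 and 42.5 CPM in the HFCS-labelled and 48.6, 36.6 and 33.9 CPM in the control-labelled libraries, with control replicate 1 among the HFCS-labelled values. Without that library it passed, at 0.41 on the log2 scale (edgeR adjusted p = 0.00191). Atg4c and Atg5 were lowest in control replicate 1, at 23.4 and 28.3 CPM, and without it their log2 fold changes were -0.01 and -0.02.

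By letters alone, 3 members carry the extended E-box motif GTCACGTG in the stretch from 250 bases before to 50 after a RefSeq start site (GRCm38.p6). The core CACGTG within it is the sequence known to be read by TFEB, the transcription factor of lysosomal and autophagy genes. The windows are shown because these members, Atg3, Atg7 and Atg14, all passed the test but in opposite directions. Capitals mark the motif on either strand, and positions count from the RefSeq start.
Atg3, 120 to 41 bases before the start, plus strand, chr16:45158709-45158788: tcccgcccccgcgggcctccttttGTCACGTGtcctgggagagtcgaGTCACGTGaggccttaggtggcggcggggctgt
Atg7, 160 to 81 bases before the start, plus strand, chr6:114670936-114671015: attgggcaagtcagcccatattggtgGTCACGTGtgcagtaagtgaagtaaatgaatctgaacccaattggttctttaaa
Atg14, 80 bases before to 10 after the start, minus strand, chr14:47568425-47568514: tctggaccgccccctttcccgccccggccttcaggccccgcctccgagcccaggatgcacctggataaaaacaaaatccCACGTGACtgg

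Atg3, which rose by 0.38, holds the motif at 2 places, and Atg7 and Atg14, which fell by 0.29 and 0.37, hold it once each. The RefSeq start of Atg3 lies 44 bases inside the counted gene, that of Atg14 2215 bases inside and that of Atg7 27999 bases inside, well within the gene. RefSeq promoters were matched by symbol for 31 members, with 37 windows. The extended motif was in 8.1% of these windows and in 2.2% of all 32851 windows, and the core CACGTG in 10.8% and 7.2%. Atg5 holds the core without the longer motif, 14 bases before the start, and did not pass (log2 fold change 0.11). Of the other motifs searched on both strands, TGACNNNGC, the core of the antioxidant response element, was in 18.9% of the members' windows and in 12.4% of all, TATAAA in 5.4% and 13.6%, and TGATGNAA, part of the C/EBP-ATF element, in 0% and 4.0%. The extended E-box contains the core, so those counts overlap, and a match is a description of letters and not of binding.

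The 5 ATG8 family genes were measured as Gabarap, Gabarapl1, Gabarapl2, Map1lc3a and Map1lc3b, whose products include the common autophagosome marker LC3B. Here the most abundant of them rose and Map1lc3b fell. Gabarap (ENSMUSG00000018567, chromosome 11, 69991143 to 69994951, plus strand) had 235, 240 and 223 CPM in the HFCS-labelled and 180, 162 and 169 CPM in the control-labelled libraries, which is 0.45 ± 0.07 on the log2 scale (edgeR adjusted p = 3.6e-04). Map1lc3b (ENSMUSG00000031812, chromosome 8, 121590361 to 121598760, plus strand) had 98.1, 102 and 98.6 against 143, 131 and 137 CPM, and fell by 0.46 ± 0.07 (edgeR adjusted p = 2.4e-04). Each HFCS-labelled library was above all control-labelled ones for Gabarap and below all of them for Map1lc3b.

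Gabarapl1 and Gabarapl2 had log2 fold changes of -0.24 (95% interval -0.44 to -0.03) and -0.21 (-0.41 to -0.02). Their libraries did not overlap between the groups, with 36.7 to 41.7 against 44.2 to 51.3 CPM for Gabarapl1 and 35.2 to 41.7 against 43.6 to 44.2 CPM for Gabarapl2. They missed the threshold (edgeR adjusted p = 0.0566 and 0.0736) and passed in some other settings, at 0.0363 and 0.0421 with upper-quartile factors. Gabarapl2 has processed pseudogenes with 96.6 to 99.4% identity over 349 to 352 bases, so some of its reads may have been split or dropped. Map1lc3a, the least abundant member at 4.57 ± 1.01 CPM in the control-labelled libraries, had a log2 fold change of 0.40 with an interval from -0.11 to 0.92, which spans 0. The coefficient of variation of its CPM was 25.1% in HFCS-labelled libraries and 22.2% in control-labelled ones.

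Per kilobase of exon, Gabarap held the largest part of the family's summed level in every library. The length used was that of the merged exons of all annotated transcripts, 1844 bases for Gabarap and 7517 for Map1lc3b. Levels per kb, and so the shares, ratio and total given here, depend on this choice, and no other length was tried. The Gabarap part of the summed CPM per kb was 69.9 ± 0.554% with the HFCS label and 59.0 ± 0.376% with the control label (mean ± SD, n = 3 each). Map1lc3b held 7.33 ± 0.178% and 11.6 ± 0.171%, Gabarapl1 10.9 ± 0.476% and 14.9 ± 0.442%, Gabarapl2 9.04 ± 1.10% and 12.1 ± 0.668%, and Map1lc3a 2.82 ± 0.634% and 2.46 ± 0.452%. For all but Map1lc3a the libraries of the groups did not overlap. The shares of a library add up to the whole, so a larger Gabarap part leaves less for the others. The ratio of Gabarap to Map1lc3b in CPM per kb, chosen after their values were seen, was 9.54 ± 0.304 against 5.07 ± 0.0654. The total behind these shares also differed, at 174.3 to 185.5 CPM per kb with the HFCS label and 149.9 to 165.7 with the control label. In plain CPM the family's sum overlapped between the groups, at 416 ± 10.2 and 403 ± 19.3.

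**Figure D3:**
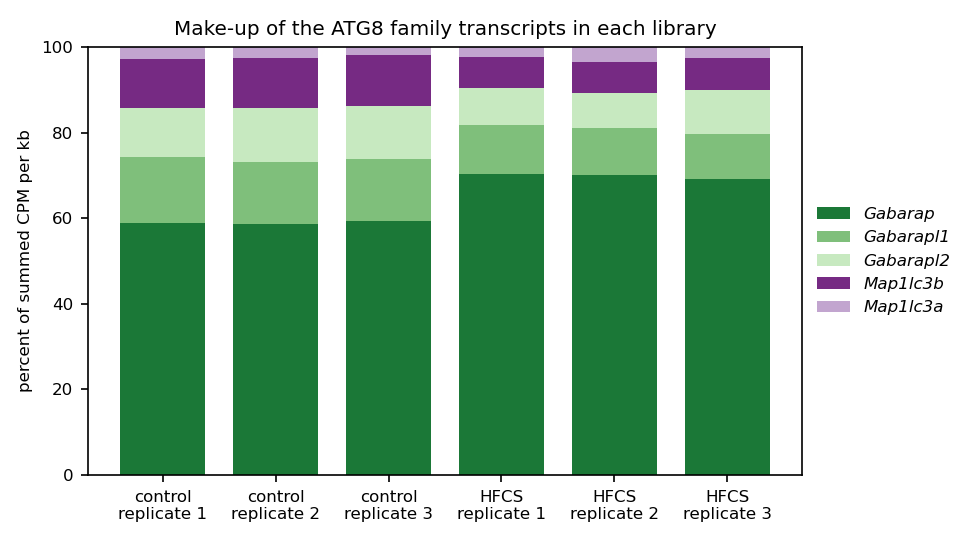
Each bar is 1 library and shows the percent of the family's summed CPM per kilobase of merged exons held by each of the 5 ATG8 genes. The Gabarap part averages 69.9% with the HFCS label and 59.0% with the control label, and the Map1lc3b part 7.33% and 11.6%.

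Receptors link cargo to ATG8 proteins. Those measured were Sqstm1 (p62), which gathers ubiquitin-tagged cargo, its relative Nbr1, the ubiquitin-binding Tax1bp1, and Calcoco1, known as a receptor for the endoplasmic reticulum and Golgi. Of the 4, 1 rose, none fell and 3 did not pass. Sqstm1 (ENSMUSG00000015837, chromosome 11, 50199366 to 50210827, minus strand) had 1243, 1161 and 1100 CPM in HFCS-labelled replicates 1 to 3 and 602, 463 and 533 CPM in control-labelled replicates 1 to 3. The lowest HFCS-labelled library was thus far above the highest control-labelled one. Sqstm1 rose by 1.13 ± 0.09 (edgeR adjusted p = 8.1e-06), and by 1.04 to 1.23 in the 14 other settings. Mrnip, which shares 17.3% of the exon bases of Sqstm1 on the opposite strand, had only 42 to 93 counts in any library, where Sqstm1 had 6305 to 17747.

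The stretch around the RefSeq start of Sqstm1 (GRCm38.p6) is shown because this is the member with the largest change. It lies on the minus strand and runs from 110 bases before to 20 after the start, and capitals mark the TATAAA motif, which begins 1 base before that start. None of the other 4 motifs searched was found in the window of 250 bases before to 50 after the start, which says nothing of sites farther away.
Sqstm1, chr11:50210801-50210930: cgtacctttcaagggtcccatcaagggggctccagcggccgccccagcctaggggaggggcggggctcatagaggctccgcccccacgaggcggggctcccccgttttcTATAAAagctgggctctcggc

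The other receptors did not pass. The log2 fold changes were 0.12 for Tax1bp1 (95% interval -0.08 to 0.32), -0.04 for Nbr1 (-0.19 to 0.11) and -0.19 for Calcoco1 (-0.49 to 0.12). Nbr1 had 167, 159 and 151 CPM in the HFCS-labelled and 156, 172 and 162 CPM in the control-labelled libraries, which overlapped. The log2 ratio of Sqstm1 to Nbr1 within a library was 2.88 ± 0.02 against 1.70 ± 0.26 (SD, n = 3 each).

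Set beside each other, the 3 stages had similar medians. Of 11 initiation genes 2 rose and 3 fell (45.5% called, median log2 fold change -0.04), of 16 conjugation genes including the ATG8 family 3 rose and 3 fell (37.5%, -0.02), and of 4 receptors 1 rose (25.0%, 0.04). Of all tested genes 44.9% were called. The stage values are descriptions of small lists, and the difference between the stages was not tested. Per kilobase of exon, Sqstm1 was the most abundant member in both groups, at 348 and 159 CPM per kb in HFCS-labelled and control-labelled libraries, followed by Gabarap at 126 and 92.4 and Vmp1 at 40.5 and 35.1. Ambra1, at 3.26 and 3.35, was the lowest of the control-labelled and next to lowest of the HFCS-labelled group, where Wipi1 had 2.96. This order depends on the merged exon lengths, and no other length was tried.

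The summed level of the machinery differed with Sqstm1 and overlapped without it. The 37 members together had 3805 ± 56.7 CPM with the HFCS label and 3204 ± 41.8 CPM with the control label, without overlap. Leaving out Sqstm1, the sums were 2637 ± 15.9 and 2671 ± 39.4 CPM, with overlap. Its share of the sum was 30.7 ± 1.42% and 16.6 ± 2.0%.

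**Figure D4:**
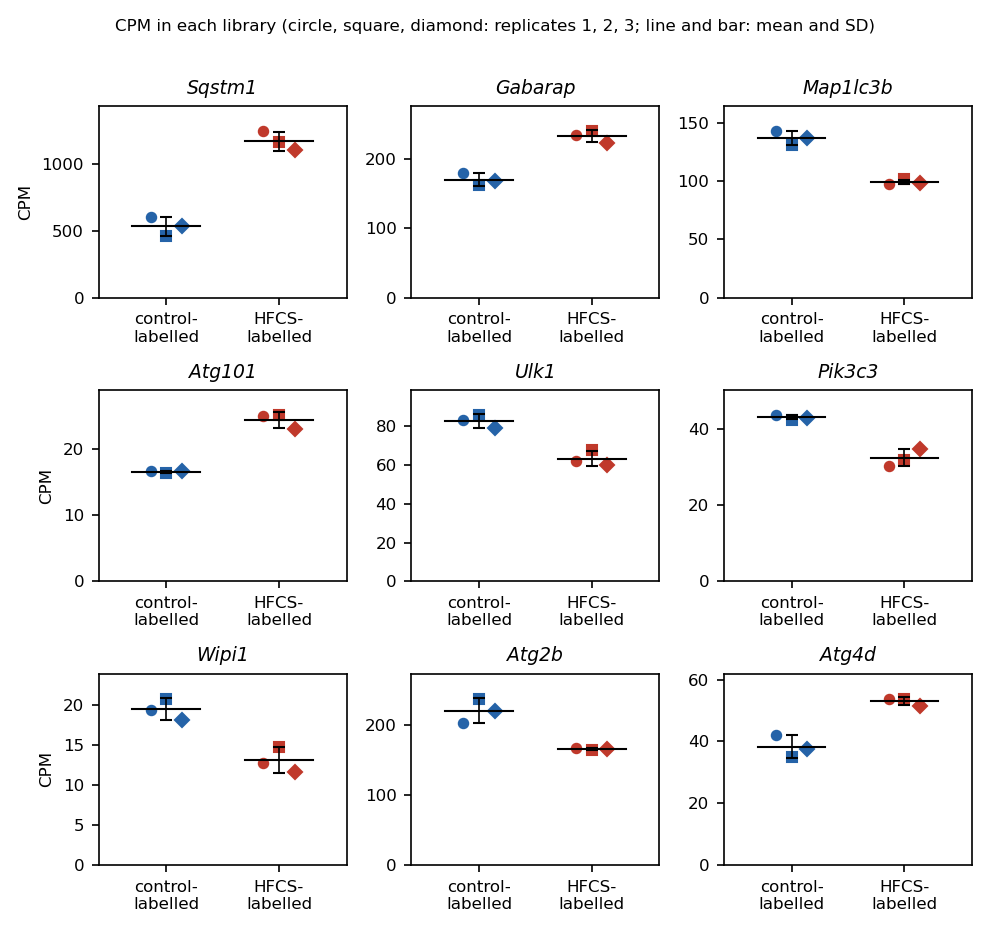
CPM of 9 members in each library, with replicates 1 to 3 as circle, square and diamond, and the mean and SD (n = 3) as line and bar. All 9 come from the 15 members past the threshold, a choice that favours genes whose groups do not overlap, as in every panel here. Groups did not overlap for 48.6% of the members and 54.5% of all tested genes. Sqstm1, Gabarap, Atg101 and Atg4d are higher and Map1lc3b, Ulk1, Pik3c3, Wipi1 and Atg2b lower in the HFCS-labelled libraries.

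Ratios of related genes within a library do not depend on how libraries are scaled. For 9 pairs, the ratios of 4 did not overlap between the groups: Atg2a to Atg2b (log2 difference 0.31), Wipi1 to Wipi2 (-0.51), Map1lc3a to Map1lc3b (0.86) and Sqstm1 to Nbr1 (1.18). Each had a two-sided exact permutation p of 0.1, the smallest that 3 libraries against 3 can give, and an adjusted p of 0.225 over the 9 pairs, so no pair could pass. The gap for Atg2a to Atg2b was slight, since HFCS replicate 1 and control replicate 1 both stood at -1.27 after rounding. The other 5 overlapped: Ulk1 to Ulk2 (-0.15), Atg4a to Atg4b (-0.23), Atg4c to Atg4d (-0.29), Atg16l1 to Atg16l2 (-0.37) and Gabarapl1 to Gabarapl2 (-0.02).

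Genes that act around this machinery were mixed too. Of 13 further early genes 5 rose and 3 fell (61.5% called, against 44.9% of all tested genes). Atg9b, a paralogue of Atg9a, had 22.1, 19.8 and 18.0 CPM in the HFCS-labelled and 72.8, 60.0 and 61.6 CPM in the control-labelled libraries, a 3.25-fold lower level (log2 fold change -1.70 ± 0.11, edgeR adjusted p = 1.6e-06), and it shares 7.5% of its exon bases with Nos3, which had 10 to 20 counts per library. Nrbf2 (0.75), a subunit of the Beclin 1 complex with ATG14, Wdr45b (0.49), the gene of WIPI3, and Bcl2l1 (0.56), whose product can bind Beclin 1, rose.

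Of 14 genes for fusion with the lysosome 3 rose and 5 fell (57.1% called, against 44.9% of all tested genes). The SNARE genes Stx17 (0.62 ± 0.08) and Ykt6 (0.50 ± 0.08) rose, with edgeR adjusted p-values of 1.4e-04 and 3.6e-04. Vps39 (-0.52 ± 0.06), a subunit of the HOPS tether, and Plekhm1 (-0.51 ± 0.06), an adaptor that binds it, fell, each with an edgeR adjusted p of 1.1e-04.

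Of 17 genes for organelle and cargo receptors, 16 were tested, of which 4 rose and 1 fell (31.2% called). Wdfy3, whose large product ALFY works with p62 on protein aggregates, had 412, 412 and 422 CPM in the HFCS-labelled and 203, 241 and 227 CPM in the control-labelled libraries, which is 0.89 ± 0.07 on the log2 scale (edgeR adjusted p = 7.8e-06). Among them Tex264 (0.48), a receptor for the endoplasmic reticulum, and Bcl2l13 (0.31), one for mitochondria, rose, and the mitochondrial receptor gene Fundc1 (-0.68) fell. Over the 3 lists 21 of 43 tested genes (48.8%) passed, beside 44.9% of all tested genes. The lists are small, and the difference between them was not tested.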

How the data were processed

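RNA from 6 libraries of RAW264.7 cells was sequenced, and groups were taken from the sample titles. The authors deposited 1 table of unnormalised read counts by gene, per the file headers. CASAVA, HISAT2 2.0.5, featureCounts 1.5.0-p3 and mm10 are named in the submitters' processing notes. Strand setting, annotation and filters were not given in the sources used here.

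Symbols were matched for 24344 of 24379 identifiers. Of the table's genes, 97.1% had the same coordinates in GENCODE M21 (GRCm38, the mm10 assembly), which also gave exon lengths and overlaps. Exon length was that of the merged exons of all annotated transcripts of a gene, which can exceed any single transcript. Copies were sought with blastn at 95% identity over at least 200 bases.

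The filter filterByExpr (minimum count 10) left 14360 genes and removed 10019. Libraries were scaled by TMM, which also set the CPM. The fit used edgeR 4.0.16 under R 4.3.3 (glmQLFit, glmQLFTest, no covariate), with Benjamini-Hochberg adjustment over the tested genes, a threshold of 0.05, and each SE taken as the size of the change over the root of its F. Ratios of gene pairs (counts plus 0.5) were compared by an exact permutation test. Alternatives were other scalings, DESeq2 1.42.0, limma-voom (limma 3.58.1), other filters, a threshold of 0.01, the replicate number as a block, and each library left out.

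No libraries agreed within sampling noise (chi-square per degree of freedom 2.71 to 18.6 within groups). The least counted member had 51 counts in 1 library.

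The members, lists, pairs and motifs were chosen with earlier results of these data known. All members are named, and of each further list up to 4 genes past the threshold with the smallest adjusted p. Some genes are not reported here.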

Additional observations from a re-analysis of the deposited data

How the results depend on the processing

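Over 686 combinations of a named gene and another setting, 639 kept their direction and side of the threshold, 19 lost a call, 10 gained one and 18 changed sign. Of the 15 members past the threshold, 11 passed in all 14 other settings (6 higher, 5 lower), and Atg14, Vmp1, Atg4a and Atg7 did not pass in 1 or more. The 15 did not change direction in any setting. At an adjusted p of 0.01, 5 members were lower in place of 8, and 2170 of all genes in place of 3224. Sign changes concerned 10 members that did not pass, whose log2 fold change became 0.04 (Ambra1), 0.05 (Atg9a), 0.01 (Wipi2), 0.02 (Atg4b) and 0.04 (Nbr1) with library size alone, 0.01 (Atg9a) with no filter and -0.01 (Atg12) with upper-quartile factors. Over the fits without 1 library it was -0.01 to 0.13 for Becn1, -0.11 to 0.01 for Ambra1, -0.07 to 0.02 for Atg9a, -0.01 to 0.31 for Atg4c, -0.02 to 0.21 for Atg5, -0.01 to 0.10 for Atg12, -0.12 to 0.01 for Atg4b, -0.24 to 0.04 for Atg10 and -0.07 to 0.01 for Nbr1. The cause was not tested. The ratio of Gabarapl1 to Gabarapl2 turned from -0.02 to 0.11 without HFCS replicate 3 and to 0.05 without control replicate 1, and was -0.09 to 0.11 over the libraries left out. Leaving out 1 library gave 6 to 8 higher and 6 to 10 lower members. In these fits 32.4% to 48.6% of the members were called, beside 34.5% to 51.5% of all tested genes. Of 330 counts by role and setting, each at most 6, 38 moved by more than 1.5 times or away from a main count of 0. Library size alone moved the median of all genes to 0.08 and made 60.2% of calls higher in place of 50%. In that fit 8 members were higher and 6 lower (37.8% called, against 46% of all tested genes). With the replicate number as a block, 8 members were higher and 10 lower (48.6% called, against 49.8% of all tested genes in that fit). Same-numbered libraries correlated at 0.21, -0.08 and 0.23 in their deviations from the group means. The highest correlations of HFCS-labelled replicates 1 to 3 with a control-labelled library of another number were -0.11, 0.19 and 0.20. Thus not every library went with its own number. Labels do not say that the numbers pair samples, so the numbers were not taken as pairs.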
